A study of Homo sapiens with 33 samples.

Results

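Nuclear and cytoplasmic RNA of wild-type K562 cells, a human leukemia cell line with erythroid features, were compared on the RNA fragments that EZH2 pulls down. Joining both deposited count tables on chromosome, start and end gave 900 fragments. They came from EZH2 RNA immunoprecipitation sequencing (RIP-seq) of the same line, and each table lists the RNA-seq reads counted on them. The comparison rests on 2 of the 33 samples of the study, the nuclear and the cytoplasmic fraction of unedited cells at passage 15 to 25, with 1 library each. No knockout or knockdown cells entered it. With 1 library per fraction there is no replicate error, and the difference has no replicate check. Every interval printed here is an exact 95% Clopper-Pearson interval of a ratio of reads and covers counting error only. In the input library of the RIP-seq, FPKM (a level per gene scaled to transcript length and library size, given by the authors) was 218.0 for HBG2, 131.8 for HBE1 and 15.3 for GATA1, all erythroid markers, but 4.73 and 5.16 for the alpha-globin genes HBA1 and HBA2. The lymphoid markers CD3E and MS4A1 stood at 0.150 and 0.0187, whereas the epithelial markers EPCAM and KRT18 had 27.9 and 47.0.

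EZH2 is the catalytic subunit of Polycomb repressive complex 2 (PRC2), which methylates lysine 27 of histone H3 and also binds RNA. RNA is made and spliced in the nucleus. Introns are cut out there and mostly degraded, while spliced messenger RNA is exported to the cytoplasm and translated. Reads inside an intron therefore usually stand for unspliced or excised RNA, and reads in a coding exon can come from mature messenger RNA as well.

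The nuclear library had 105661 reads on the fragments and the cytoplasmic library 7929. These are not library totals, which are not known from the files, so a ratio of 1 does not mark equal concentration in the compartments. For this reason each fragment was compared with the others. The ratio of nuclear to cytoplasmic reads was computed with cytoplasmic counts under 3 set to 3, and the 494 fragments with 50 or more summed reads were compared. Their median ratio was 22.2, with quartiles of 13.8 and 32.7 and a range from 0.505 to 190.3. A fragment was called cytoplasm-leaning when its ratio was at least 2-fold below this median with the interval below it, and nuclear-leaning in the opposite case. By this rule 81 fragments were cytoplasm-leaning (16.4% of those compared) and 36 were nuclear-leaning (7.29%). Depth limits the second call. Under 3 cytoplasmic reads were counted on 134 of the compared fragments, and at least 134 nuclear reads are then needed to reach it. That many nuclear reads were counted on 198 of the 494 compared fragments, whatever their cytoplasmic count. The count of nuclear-leaning fragments also moves with the settings, from 17 at a minimum of 100 summed reads to 476 with a reference ratio of 1, where 0 fragments are cytoplasm-leaning. With the ratio of the summed reads, 13.3, as the reference, 143 fragments are nuclear-leaning and 52 cytoplasm-leaning, so the split between both sides rests on the reference. The plot of nuclear against cytoplasmic reads shows the spread on both sides of the median.

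**Figure D1:**
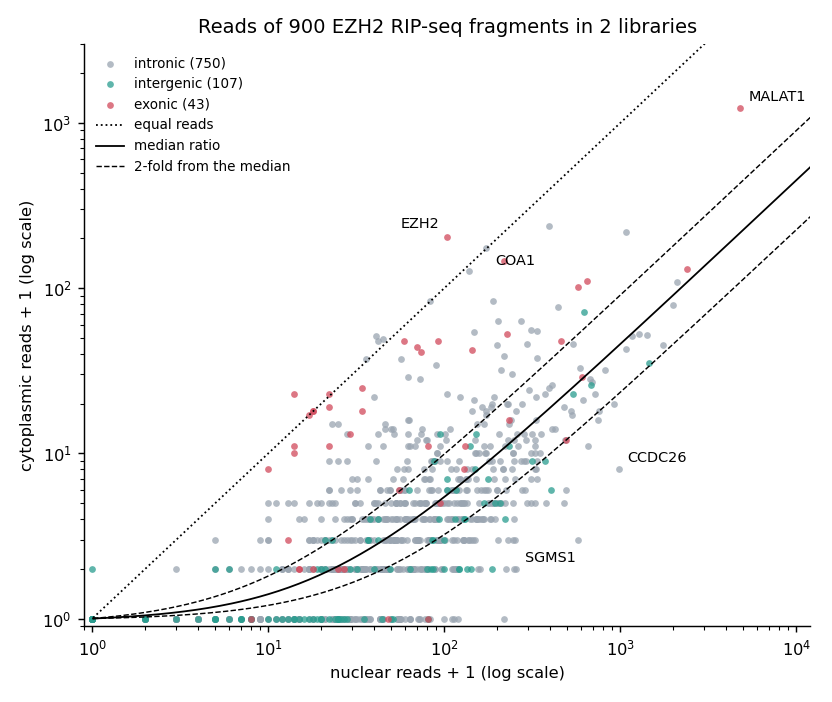
Reads of each of the 900 fragments in the nuclear library (x axis, reads + 1, log scale) and in the cytoplasmic library (y axis, reads + 1, log scale), coloured by position in GENCODE 44. The solid line is the median ratio of 22.2 and the dashed lines lie 2-fold from it. Exonic fragments such as those of EZH2 and MALAT1 lie toward the line of equal reads, and CCDC26 and SGMS1 lie on the nuclear side.

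Sequences of coding exons in fragments with a low ratio, and of introns at the nuclear end, are given to show the 2 kinds of RNA set side by side. The first 5 windows carry a coding exon of a fragment whose interval held a ratio of 1, with 20 bases of intron on each side. They do not stand for all fragments with a low ratio, some of which held no coding base, and the fragments of EZH2 and FARS2 shown had under 50 summed reads and were not among the 494 compared. Capitals mark coding bases of the canonical transcript, and each sequence is given 5′ to 3′ on the strand of the gene, on GRCh38. In EXOC4 the fragment chr7:133356505-133356573 is the last 69 bases of exon 6, with 33 nuclear and 24 cytoplasmic reads. In EZH2 (minus strand) chr7:148809309-148809390 is exon 18, with 17 reads in each library. In FARS2 chr6:5404541-5404701 is exon 3, with 13 nuclear and 22 cytoplasmic reads. In MAN1A1 (minus strand) chr6:119200469-119201346 holds 93 bases of exon 8 in its 878 bp, with 82 reads in each library. In BCR chr22:23252627-23254450 holds exon 2 and the introns around it, with 44 nuclear and 48 cytoplasmic reads.
EXOC4 exon 6, chr7:133356310-133356593: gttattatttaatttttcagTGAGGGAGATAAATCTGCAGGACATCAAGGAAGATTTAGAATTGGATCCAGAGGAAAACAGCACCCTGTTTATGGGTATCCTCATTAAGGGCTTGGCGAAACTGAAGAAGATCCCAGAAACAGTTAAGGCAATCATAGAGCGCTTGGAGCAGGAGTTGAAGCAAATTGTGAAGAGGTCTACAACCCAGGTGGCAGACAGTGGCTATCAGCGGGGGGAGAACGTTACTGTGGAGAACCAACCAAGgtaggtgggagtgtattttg
EZH2 exon 18, chr7:148809290-148809410: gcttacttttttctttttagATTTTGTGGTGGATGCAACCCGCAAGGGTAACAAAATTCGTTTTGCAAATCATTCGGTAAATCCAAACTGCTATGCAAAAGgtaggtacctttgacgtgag
FARS2 exon 3, chr6:5404522-5404721: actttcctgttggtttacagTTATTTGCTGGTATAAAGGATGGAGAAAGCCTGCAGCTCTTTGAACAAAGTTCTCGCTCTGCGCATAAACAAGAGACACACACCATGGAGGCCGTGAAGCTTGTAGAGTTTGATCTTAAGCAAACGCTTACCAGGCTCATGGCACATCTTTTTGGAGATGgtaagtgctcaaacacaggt
MAN1A1 exon 8, chr6:119201234-119201367: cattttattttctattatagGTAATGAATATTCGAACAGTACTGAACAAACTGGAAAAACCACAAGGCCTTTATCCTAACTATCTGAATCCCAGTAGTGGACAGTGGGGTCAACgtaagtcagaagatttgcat
BCR exon 2, chr22:23253779-23254000: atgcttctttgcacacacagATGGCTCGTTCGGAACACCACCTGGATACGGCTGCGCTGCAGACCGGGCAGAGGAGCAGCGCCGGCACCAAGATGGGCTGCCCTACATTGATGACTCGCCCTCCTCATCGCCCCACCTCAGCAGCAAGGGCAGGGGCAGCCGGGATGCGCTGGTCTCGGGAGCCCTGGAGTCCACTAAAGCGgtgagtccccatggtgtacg

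All 5 runs of capitals are preceded by ag and followed by gt, the usual bases at the ends of introns. The other 3 windows are the central 100 bases of fragments at the nuclear end, which lie in introns and hold no exonic base of their gene, so they carry no capitals. They belong to SGMS1 (chr10:50411380-50413948, 254 nuclear reads and 1 cytoplasmic read), ARHGAP6 (chrX:11399577-11404550, 248 and 1) and TNIK (chr3:171326474-171330734, 228 and 2), all on the minus strand.
SGMS1 intron, chr10:50412615-50412714: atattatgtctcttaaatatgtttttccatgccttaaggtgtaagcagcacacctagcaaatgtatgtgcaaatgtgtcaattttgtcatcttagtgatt
ARHGAP6 intron, chrX:11402014-11402113: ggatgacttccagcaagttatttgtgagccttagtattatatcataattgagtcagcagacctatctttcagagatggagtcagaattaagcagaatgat
TNIK intron, chr3:171328555-171328654: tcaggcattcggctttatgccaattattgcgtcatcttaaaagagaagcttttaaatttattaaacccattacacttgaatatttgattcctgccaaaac

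The cytoplasmic end was made up of fragments of 15 genes, and 14 of the 15 fragments held exonic bases. The ratios ran from 0.505 to 1.82, which is 44.1 to 12.2 times below the median. The gene of EZH2 itself carried the lowest ratio, with 103 nuclear and 204 cytoplasmic reads on chr7:148816906-148818117 (0.394 to 0.643). This was the one fragment of the 15 whose interval lay whole below 1. It was wholly exonic when exons of all transcripts were merged, and 33.9% of it was exon of the canonical transcript.

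The next fragments belong to genes of varied function. DGCR2, a cell surface receptor gene of the DiGeorge region, had 40 nuclear and 50 cytoplasmic reads. GOLGA1, which encodes a golgin of the trans-Golgi network, had 41 and 47. BCR had 44 and 48, and the lncRNA AC016723.4 had 35 and 36. In none of these 4 did the interval leave out 1.

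COA1 had 171 nuclear and 173 cytoplasmic reads on chr7:43627265-43630593 (ratio 0.988, 0.795 to 1.23). COA1 encodes an assembly factor of cytochrome c oxidase, and STK17A overlaps it there on the opposite strand. MAN1A1, a mannosidase of the Golgi, had 82 reads in each library. PSMA1, a subunit of the proteasome, had 137 and 126 on chr11:14596151-14599359, the one fragment of this end without an exonic base. All 3 ratios lay within counting error of 1, at 20.5 to 22.5 times below the median.

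SCFD2 followed with 58 and 47 reads, EXOC4 of the exocyst with 33 and 24, and MARCH7, a ubiquitin ligase, with 56 and 36. H2AFY, which encodes the histone variant macroH2A1, had 217 and 144 reads where C5orf66 overlaps it. FARS2, the mitochondrial phenylalanyl-tRNA synthetase, had 69 and 43. XRRA1, which overlaps RNF169, had 73 and 40. Whether featureCounts used the strand is not given in the sources used here, so reads on overlapping genes cannot be told apart.

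The nuclear end held long, mostly intronic fragments of few genes. The 15 highest ratios ran from 74.3 to 190.3, or 3.34 to 8.55 times the median, and belonged to 6 host genes and 4 fragments with no host in the FPKM table. Chromosome 8 carried 7 of the 15, beside 33 of the 494 compared fragments. The median length of the 15 was 6463 bp, against 1212 bp at the cytoplasmic end and 2909 bp for all compared fragments. With cytoplasmic counts under 3 set to 3, the lowest of these ratios, 74.3, took 223 nuclear reads. Longer fragments collect more reads, so length cannot be told apart from this need for reads here. CCDC26, a long noncoding RNA (lncRNA) expressed in leukemia cells, gave 5 of the 15 and hosted 14 of the 33 compared on chromosome 8. It had 571 nuclear and 2 cytoplasmic reads on chr8:129464021-129477872 (interval 78.7 to 2363) and 975 and 7 on chr8:129553899-129566233 (ratio 139.3, 67.3 to 347.4). The other CCDC26 fragments of this end had 487 and 5, 377 and 4, and 245 and 2 reads.

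ZFPM2, a cofactor of GATA proteins, had 477 nuclear and 4 cytoplasmic reads on chr8:105334746-105341208 (ratio 119.2, 46.3 to 439.5). SGMS1, a sphingomyelin synthase, had 254 and 1. ARHGAP6, a GTPase-activating protein, had 248 and 1 and also 328 and 4. TNIK, a kinase of the Wnt pathway, had 228 and 2, and the lncRNA CTD-2060L22.1 had 223 and 1. These genes thus had cytoplasmic counts of 1 to 4 reads beside 223 to 477 nuclear reads. The 4 fragments without a host lay at chr8:129330705-129339268 (250 and 2), chr6:140332570-140337200 (246 and 3), chr7:145905732-145912309 (400 and 5) and chr5:28880420-28883718 (308 and 4). GENCODE 44 extends CCDC26 over the first of these and places the last in the lncRNA LINC02109, and the fragment on chromosome 7 was intergenic.

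No cytoplasmic read was counted on 212 of the 900 fragments, of which 26 reached 50 summed reads. The one with the most nuclear reads was chr8:90294981-90313826 in the lncRNA LINC00534, with 218. It was followed by PKP4, a plakophilin of cell junctions, with 119, chr6:140186288-140187484 with 112, and the lncRNAs AP000705.7 with 109 and AC098617.1 with 99. Against the 3 reads that a count of 0 allows, LINC00534 had a ratio of 72.7 and the others 33.0 to 39.7. The exact intervals began at 58.6 for LINC00534 and at 26.3 to 31.8 for the other 4, all above the median, but for those 4 the ratios against 3 reads were less than 2-fold above it, so they were in neither called group.

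The position of a fragment in its gene went with the ratio. Exonic fragments, with at least 50% of their length in annotated exons, had a median ratio of 5.78 (24 compared). Intronic fragments had 22.2 (429 compared) and intergenic fragments 28.3 (41 compared). Of the exonic fragments, 15 (62.5%) were cytoplasm-leaning and 0 nuclear-leaning. The corresponding numbers were 64 (14.9%) and 30 (6.99%) for intronic and 2 (4.88%) and 6 (14.6%) for intergenic fragments, beside 16.4% and 7.29% over all 494. When a fragment with any exonic base counted as exonic, the relative median of the class, which is its median ratio over 22.2, moved from 0.260 to 0.719. The class is uneven, because exons of every transcript were merged and a retained intron then counts as exonic.

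Coding sequence separated the fragments more sharply. At least 50% of the length was coding in 13 fragments of 6 genes, 68 to 1720 bp long. Their ratios ran from 0.591 to 4.35, all 13 intervals lay below the median of 22.2, and 10 held 1. Only 4 of the 13 reached 50 summed reads, and those 4 were cytoplasm-leaning. A fragment shared by ZNF117, a zinc finger gene, and ERV3-1 had the highest ratio with 226 nuclear and 52 cytoplasmic reads. Its coding bases were not assigned to either gene. The remaining 12 fragments had ratios up to 2.33. Summed over its 4 coding fragments EXOC4 had 91 nuclear and 53 cytoplasmic reads (ratio 1.72, 1.21 to 2.46). SCFD2 had 88 and 73 over 3 fragments (1.21, 0.874 to 1.67), and FARS2 had 82 and 65 over 2 (1.26, 0.90 to 1.77). These groups of coding bases were chosen after the values were seen.

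Intronic fragments that also held coding bases resembled them. Of the 13 compared, 12 (92.3%) were cytoplasm-leaning, with a median ratio of 2.18. The 416 compared intronic fragments without coding bases had a median of 22.5, and 52 of them (12.5%) were cytoplasm-leaning. The 12 with coding bases included fragments of DGCR2, GOLGA1, BCR, MAN1A1, MARCH7, ZEB2, NUP214, ENOSF1, ARHGAP6 and RASA1, the last a GTPase-activating protein of RAS with 2 of them. A further RASA1 fragment, with 303 nuclear and 23 cytoplasmic reads, was the exception at a ratio of 13.2. Any coding base placed a fragment in this group, and the counts do not say which reads of a fragment fell on the exon.

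Within one gene, fragments with and without coding bases could be set side by side. In MAN1A1 the fragment with exon 8 had 82 reads in each library. The other 7 fragments, without an exonic base, had 37 to 194 nuclear and 0 to 3 cytoplasmic reads, the largest pair being 194 and 3 (ratio 64.7, 21.8 to 316.3). MAN1A1, SCFD2, EXOC4 and FARS2 each had a fragment among the 15 lowest ratios, so these contrasts were drawn with their values known. In SCFD2 the coding fragments had 13 and 9, 17 and 17, and 58 and 47 reads, and the intronic ones 108 and 5, and 76 and 7. In EXOC4 an intronic fragment had 31 nuclear reads and 1 cytoplasmic read. The coding ones had 28 and 12, 21 and 10, 33 and 24, and 9 and 7. A further EXOC4 fragment, 63.2% exonic but without coding bases, had 12 and 2. Its interval (1.34 to 55.2) overlapped those of the coding fragments. In FARS2 the intronic fragment had 25 and 1.

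ZEB2, a zinc finger repressor, and ARHGAP6 were among 3 host genes with fragments called in both directions. The ZEB2 fragments with coding bases had 61 nuclear and 28 cytoplasmic reads (ratio 2.18, 1.37 to 3.54) and 643 and 109 (5.90, 4.81 to 7.30). Its fragment chr2:144499262-144505233, without coding bases, had 741 and 15 (49.4, 29.8 to 88.7). The other ZEB2 fragments without coding bases were in neither called group. The most-read of them had 1281 and 52 (24.6, 18.7 to 33.2). Another, 81.2% exonic, had 489 and 11 (44.5, 24.6 to 89.6), so exonic bases alone did not go with a low ratio here. In ARHGAP6 the fragment with coding bases, chrX:11250435-11254777, had 333 and 37 (9.0, 6.4 to 13), while the other 11 had 46 to 334 nuclear and 0 to 8 cytoplasmic reads. The remaining gene was the lncRNA AC069277.2, with 172 and 17 reads on one fragment and 154 and 1 on another.

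Not all cytoplasm-leaning fragments held coding or exonic bases. Of the 81 cytoplasm-leaning fragments, 37 held no exonic base of any annotated gene, which is 9.46% of the 391 such fragments compared. Besides PSMA1 they included BCR with 39 nuclear and 21 cytoplasmic reads, AC016723.4 with 72 and 27, and SENP5, a SUMO protease, with 89 and 33. NUP214 of the nuclear pore had 308 and 55 (ratio 5.60, 4.19 to 7.6), and STXBP5, a syntaxin-binding protein, had 336 and 54 (6.22). They are examples picked with their values in view, and the cause was not tested.

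Further cytoplasm-leaning fragments lay in genes of varied function. The ribosomal protein genes RPS19 (147 nuclear and 53 cytoplasmic reads) and RPL27A (142 and 41) were among them. The nuclear RNA-binding proteins HNRNPU (572 and 101) and HNRNPD (121 and 21, without an exonic base) and the splicing factor SRSF4 (218 and 38) also were. LAMB1, a laminin chain, had 33 and 17 where DLD overlaps it, and VEGFA, the vascular growth factor, had 80 and 10. The lncRNA AC005307.5 had 1069 and 218 (ratio 4.90) on a fragment shared with AC005616.1, AC005394.1 and AC079466.1. In all, 44 of the 81 held exonic bases, against 103 of the 494 compared.

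Polyadenylation, measured in 2 further libraries of nuclear RNA with and without a poly(A) tail, was not used to choose or call the fragments. The totals of these libraries are not known either, so equal polyA+ and polyA− reads do not mark equal levels. Of the cytoplasm-leaning fragments, 44 of 81 had more polyA+ than polyA− reads, as did 68 of the 494 compared and 0 of the 36 nuclear-leaning ones. The median ratio of polyA− to polyA+ reads, with polyA+ counts under 3 set to 3, was 0.948 in cytoplasm-leaning, 10.1 in nuclear-leaning and 3.56 in all compared fragments. The median nuclear to cytoplasmic ratio was higher at each step of this measure. It was 7.5 in the 68 fragments with more polyA+ reads, 19.2 at a polyA− to polyA+ ratio of 1 to 2, 22.3 at 2 to 4, 23.2 at 4 to 8 and 30.9 at 8 or more. On a log2 scale the 2 ratios had a Pearson correlation of 0.54 and a Spearman correlation of 0.49 over the 494 fragments, given as a description because fragments share the libraries and genes. Without exonic bases the values were 0.44 and 0.37 (391 fragments). The median nuclear to cytoplasmic ratio there was 10.9 in the 31 compared fragments with more polyA+ reads and 24.0 in the 358 with more polyA− reads.

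**Figure D2:**
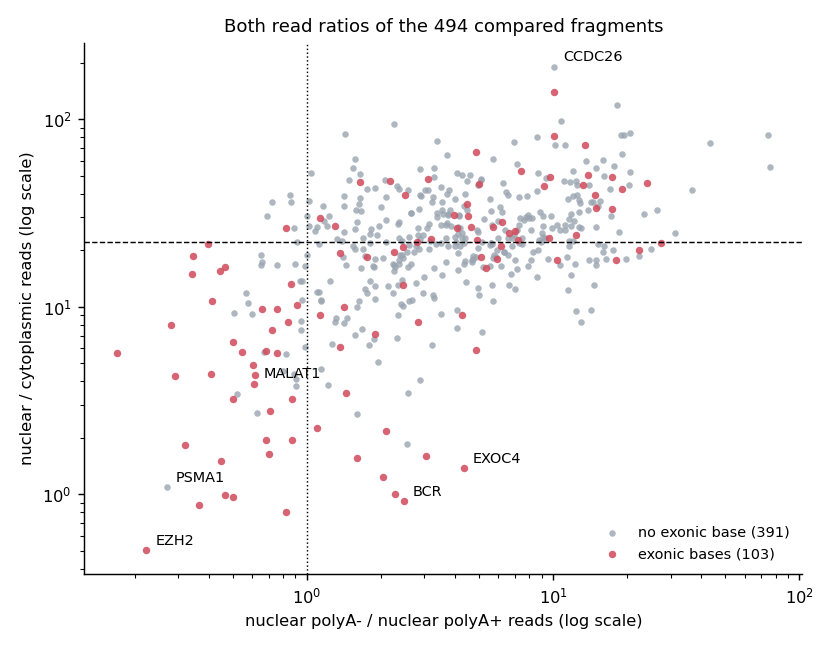
The ratio of nuclear polyA− to polyA+ reads (x axis, log scale) and of nuclear to cytoplasmic reads (y axis, log scale) of the 494 compared fragments, red where they hold exonic bases. The dashed line is the median of 22.2. EZH2 and PSMA1 lie at the lower left with more polyA+ reads, while EXOC4 and BCR also lie low, with more polyA− reads.

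Coding fragments with nearly equal nuclear and cytoplasmic reads differed in their ratio of polyA− to polyA+ reads. The 9 coding fragments of EXOC4, SCFD2 and FARS2 had 261 nuclear and 191 cytoplasmic reads (ratio 1.37, 1.13 to 1.66), and 195 polyA− against 68 polyA+ reads (ratio 2.87, 2.17 to 3.84). The 3 of EZH2 and GOLGA1 had 46 and 43 reads (1.07, 0.690 to 1.66), and 18 polyA− against 82 polyA+ reads (0.220, 0.124 to 0.369). Their nuclear to cytoplasmic intervals overlapped and their polyA intervals did not. This grouping was made after the values were seen, and its cause was not tested.

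Host genes differed in level, and some were uneven within. At least 5 fragments lay in 41 genes, with 340 fragments between them, and 37 of these genes had 3 or more cytoplasmic reads in sum. The interval of the summed ratio lay above the median of 22.2 in 12 of the 37 and below it in 9. CCDC26 had 4004 nuclear and 47 cytoplasmic reads over 17 fragments (ratio 85.2, 63.9 to 116.1). The interval of each of the 17 held that ratio, but each had only 0 to 7 cytoplasmic reads and thus a wide interval. The lncRNA AC098617.1 had 386 and 3 over 7 fragments (128.7, 43.7 to 626.6), and PKP4 had 336 and 1 over 5. ZFPM2 followed with 1053 and 15 (70.2), the lncRNA AP000705.7 with 341 and 6 (56.8), MAML2, a Notch coactivator, with 279 and 5 (55.8), LINC00534 with 906 and 17 (53.3) and PRKCB, a protein kinase C, with 614 and 12 (51.2). FLJ46284, FGF13 and CTA-481E9.4 had no cytoplasmic read beside 50, 43 and 16 nuclear reads, over 15, 11 and 5 fragments. Their intervals began at 13.1, 11.2 and 3.86, below the median of 22.2, and had no upper limit. These counts are too low to place the 3 genes on either side.

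The lowest summed ratios belonged to EXOC4 (134 and 56 reads, 2.39, 1.74 to 3.33), SCFD2 (272 and 85, 3.20), AC016723.4 (276 and 74, 3.73) and MAN1A1 (651 and 98, 6.64). TBXAS1, the thromboxane synthase, had 230 and 26 (8.85, 5.88 to 13.8), and ABL1 631 and 55 (11.5, 8.70 to 15.4). Between these ends, the intervals of many genes overlapped. LVCAT5, a lncRNA with 8968 nuclear and 348 cytoplasmic reads over 8 fragments, had 25.8 (23.2 to 28.8), CPED1 had 2958 and 106 (27.9) over 18, and MBNL1, a splicing regulator, had 2621 and 129 (20.3). In 17 of the 37 genes at least 1 fragment's own interval left out the ratio of its gene, and this held for 42 of 304 fragments. ZEB2 contributed 7, MAN1A1 6, and SCFD2 and LINC01033 4 each. Intervals narrow with more reads, so these counts also depend on depth. Leaving out the fragment with the most reads moved ARHGAP6 from 32.2 to 61.8, SCFD2 from 3.20 to 2.05, STXBP5 from 16.4 to 11 and SLC25A21 from 28.4 to 16.3. For PKP4, with its 1 cytoplasmic read set to 3, the ratio moved from 112.0 (59.9 to 13310) to 72.3.

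Genes were also read by lists, which were set with earlier results of these data known. Of 9 lncRNAs known for nuclear RNA or for leukemia, 6 hosted 41 fragments, and 7 of the 22 compared were nuclear-leaning (31.8%, beside 7.29% over all) and 1 was cytoplasm-leaning. The 7 were 6 fragments of CCDC26 and 1 of LINC00534, both named above, and CCDC26 hosted 14 of the 22 compared. Fragments of 1 gene are not independent, so the share shows nothing beyond those genes. Beside the values above, the sixth CCDC26 fragment had 292 nuclear and 4 cytoplasmic reads. The exception was MALAT1, a lncRNA of nuclear speckles, with 4778 nuclear and 1228 cytoplasmic reads on chr11:65499308-65501247 (ratio 3.89, 3.65 to 4.15). This fragment had the most reads in both libraries and held 15.5% of the cytoplasmic and 4.52% of the nuclear reads on all fragments. A compared fragment shared by KCNQ1, a potassium channel gene, and its antisense RNA KCNQ1OT1 had 80 nuclear reads and 0 cytoplasmic reads and was called in neither direction, and its reads cannot be assigned to either gene.

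Among 11 PRC2 genes only EZH2 hosted fragments, 4 in all, with 154 nuclear and 249 cytoplasmic reads in sum (ratio 0.618, 0.503 to 0.759). The shorter ones had 17 and 17, 21 and 18, and 13 and 10 reads. BCR, ABL1 and NUP214, genes rearranged or amplified in K562 cells, hosted 11 fragments, all compared, of which 6 (54.5%, beside 16.4% over all) were cytoplasm-leaning and 0 nuclear-leaning (beside 7.29%). Their median ratio was 7.35. ABL1, whose 6 fragments held no exonic base, ranged from 61 nuclear and 15 cytoplasmic reads (ratio 4.07, 2.28 to 7.70) to 65 and 3 (21.7). NUP214 had 188 and 83 beside the fragment given above, and the remaining BCR fragment had 52 and 4.

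Of 27 erythroid and blood genes, 4 hosted 10 fragments, and 0 of the 8 compared were cytoplasm-leaning (beside 16.4% over all) and 1 was nuclear-leaning (12.5%, beside 7.29%). With 8 fragments these counts show nothing particular to the list. RUNX1, a transcription factor of blood formation, had 435 nuclear and 14 cytoplasmic reads over 5 fragments (31.1, 18.3 to 57.3). The nuclear-leaning one was 1 of 4 fragments that fall in HBG2 and HBE1 only through long annotated transcripts starting far upstream of the globin genes, in the region of the lncRNA that the study named LEVER. In order along the chromosome they had 69 and 5, 201 and 2, 125 and 4, and 126 and 3 nuclear and cytoplasmic reads, or 0.620, 3.01, 1.40 and 1.89 times the median, and the second, chr11:5398314-5404318, was the one called. None of the 30 host genes of small nucleolar RNAs held a fragment.

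Among chromosomes with 8 or more compared fragments, 22 and 9 had the lowest median ratios and 8 the highest, a pattern read after the values were seen. On chromosome 22, 7 of 8 compared fragments (87.5%, beside 16.4% over all) were cytoplasm-leaning, with a median ratio of 3.11, and they included fragments of DGCR2, BCR, TOP3B, PI4KA and HIRA. On chromosome 9, which carries ABL1 and NUP214, 6 of 12 were, with a median of 8.86. On chromosome 8, 9 of 33 (27.3%, beside 7.29% over all) were nuclear-leaning and 0 cytoplasm-leaning, with a median of 42.7, and CCDC26 hosted 14 of the 33.

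Length and host of the called fragments are given as descriptions. Nuclear-leaning fragments had a median length of 4831.5 bp, against 2303.0 bp for cytoplasm-leaning and 2909.0 bp for all compared fragments. Longer fragments collect more reads, and the nuclear-leaning call needs them. The median host gene spanned 328549 bp for nuclear-leaning, 116753 bp for cytoplasm-leaning and 225916 bp for all compared fragments with a host. The host was protein-coding for 60 of 75 cytoplasm-leaning and 9 of 23 nuclear-leaning fragments with a host, beside 278 of 401 compared. Intronic fragments of lncRNA hosts had a median of 1.17 times that of all compared fragments (106 compared), and those of protein-coding hosts 0.899 times (259 compared). With the log2 ratio, log2 host length had a Pearson r of 0.37 (401 fragments) and GC content one of -0.31 (494). Purine content on the strand of the host gene had one of -0.06 (396) and log2(FPKM + 1) of the host one of -0.11 (401). Among fragments without exonic bases GC content had -0.16 (391) and purine content -0.23 (300). All are descriptions over fragments that share libraries and genes.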

How the data were processed

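Read counts per fragment were deposited by the authors without normalization for nuclear, cytoplasmic, nuclear polyA+ and nuclear polyA− RNA. Per the labels and methods, reads were trimmed, mapped with STAR to GRCh38 with GENCODE 26, freed of duplicates and of mapping qualities under 20, and counted with featureCounts. Whether strand was used is not given in the sources used here. FPKM of the RIP-seq input RNA, deposited by the authors per gene, gave gene spans and marker levels. These counts were joined, placed on GENCODE 44 exons, and assigned to the gene that held at least 50% of the fragment, protein-coding first. Coordinates are printed as deposited. In the 4 fragments that end with an exon and start within 2 bases of its start, the start lay 1 base before the exon, so deposited starts may count from 0. Fragments were named when among the 15 lowest or highest ratios, or among the 5 with no cytoplasmic but most nuclear reads. They were also named when cytoplasm-leaning with exonic bases, in host genes with 5 or more fragments, or in the gene lists. The fragments and lists were chosen with earlier results of these data known. Calls were tested on simulated data. Fragments left unmoved there shared a common ratio, unlike the spread of the real ratios, so the test does not cover that spread. Python 3.11.15, scipy 1.17.1, numpy 2.4.6, pandas 2.3.3, pysam 0.24.0 and matplotlib 3.10.9 were used. Values of a few genes named by these rules, among them 1 of the 15 lowest fragments, are not reported here. The other samples of the study were not analysed here. Alternatives changed the reference, minimum, floor, fold, interval and exon definitions.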

Additional observations from a re-analysis of the deposited data

How the results depend on the processing

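The nuclear-leaning count depended on the settings more than the cytoplasm-leaning count. Against 36 nuclear-leaning fragments there were 143 with the summed reads as reference (ratio 13.3), 121 with the summed reads without the 10 most-read fragments (14.5), 476 with a reference of 1, 104 at a minimum of 20 summed reads, 17 at 100, 180 with no minimum, 19 at 3-fold, 21 with a 99% interval, 65 by fold alone and 21 with 1 fragment per host gene, while adding 1 read to both counts gave 35 and 1.5-fold gave 43. Against 81 cytoplasm-leaning fragments there were 52 with the summed reads as reference and 0 with a reference of 1, and between 55 and 98 in the other settings. The minimum also shifts the reference, to 16 at 20 reads and 29.6 at 100, and 61 of the 81 were called at a minimum of 20 and 48 with none. The relative median of exonic fragments moved from 0.260 to 0.719 when any exonic base sufficed, and was 0.216 at a minimum of 20 reads and 0.175 with canonical exons, a definition added after seeing the data. In these settings the relative median of intronic fragments was 0.994 to 1.02 and that of intergenic fragments 1.27. Of 41 summed gene ratios, 32 stayed within their own interval without the most-read fragment of the gene, 9 moved out of it, and 0 of those whose interval lay beyond the median crossed it. The most-read fragment was not always the one with coding bases. In MAN1A1 it had 194 and 3 reads, and the coding fragment with 82 in each library stayed in. Summed ratios without the coding fragments were not computed, so this check does not cover their weight. No paired analysis was possible because each fraction has 1 library. The repeat-masked share of fragments was not run, since the genome used here does not mark repeats. A count of 0 to 2 cytoplasmic reads limits how high a ratio can be read for 134 of the 494 compared fragments.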
